A study of Mus musculus with 16 samples.

Results

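The integrated stress response and the unfolded protein response were examined through 10 genes, chosen by name: Atf4, Atf3, Ddit3, Asns, Trib3, Chac1, Sesn2, Hspa5, Xbp1 and Atf6. All 10 were among the 17655 genes listed for each sample, and all 10 passed the filter on low values. The cells were preSC, cultured mouse lung neuroendocrine cells that are precursors of small cell lung cancer. They are Chga-positive, and both groups were Rb1 null, Trp53 null and heterozygous null for Rbl2. Doxycycline (1 µg/mL, 48 hours) was given to both groups before RNA was taken. The groups differed in the lentivirus they carried, an empty control in 8 samples ("empty") and Wnt5a in 8 samples ("Wnt5a"). The empty group is therefore a vector control that also had doxycycline. The labels do not say whether samples came from separate cultures or clones, so the p-values measure only the spread between these samples, which may be technical.

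In the integrated stress response, kinases that sense amino acid shortage, unfolded protein in the endoplasmic reticulum (ER), double-stranded RNA or heme deficiency phosphorylate the initiation factor eIF2. General translation then slows, while the mRNA of the transcription factor ATF4 is translated better and ATF4 switches on genes of amino acid supply. The unfolded protein response adds the ER sensors ATF6, which is cut to release a transcription factor, and IRE1 (gene Ern1), which splices Xbp1 mRNA. Phosphorylation, cleavage and splicing are not read by gene-level counts, so the values here are mRNA levels only. Neuroendocrine cells are secretory and fold the peptides they secrete in the ER.

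DNA elements through which these pathways act were looked for in the RefSeq promoters (build GRCm38.p6, 250 bases before to 50 after each gene's start), which were present for 9 of the 10 genes. The sequences below are shown because 4 of the genes hold in them an element through which ATF4 or the ER sensors are known to act. They are written 5′ to 3′ on the gene's strand with the matched bases in capitals.
Hspa5, chr2:34772010-34772058, plus strand: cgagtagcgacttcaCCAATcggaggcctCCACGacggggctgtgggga
Chac1, chr2:119351034-119351071, plus strand: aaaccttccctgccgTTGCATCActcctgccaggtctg
Atf3, chr1:191183421-191183458, minus strand: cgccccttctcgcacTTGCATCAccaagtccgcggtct
Asns, chr6:7693210-7693247, minus strand: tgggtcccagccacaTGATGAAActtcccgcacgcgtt

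In Hspa5 the capitals mark the ER stress element, CCAAT followed after 9 bases by CCACG, which begins at position -65 from the start. It was searched on both strands and was present in 0.119% of the 32851 promoters in the table and in 1 of the 9 genes here. The shares of all promoters count every listed start. A gene was counted if any of its listed promoters held the element, so counts of genes and these shares are not on the same scale. In Chac1 and Atf3 the capitals mark the core of the C/EBP-ATF element, TGATGCAA, read on the opposite strand as TTGCATCA, at positions -193 and -110. This core was present in 0.895% of all promoters. With the sixth base left free (TGATGNAA, which includes the exact core) it was present in 3.97% of all promoters and in 4 of the 9, adding Asns at position -23 and Trib3 at position 15, after the start. The unfolded protein response element TGACGTGG (0.676% of all promoters) was in 0 of the 9. A match describes these letters in this window and shows no binding.

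The same elements were counted in the promoters of other genes of the pathways. The ER stress element was found in 7 of 15 ER chaperones and foldases with a promoter in the table, namely Calr, Canx, Creld2, Dnajc3, Ero1lb, Hsp90b1 and Pdia6. It was also found in Derl3 and Syvn1, of 13 genes of ER-associated degradation and translocation. The exact C/EBP-ATF core was found in 4 of 8 tRNA synthetases known as ATF4 targets (Aars, Iars, Tars and Yars), and in 3 of 13 enzymes and transporters of amino acids (Pycr1, Slc1a4 and Slc7a11). It was also in 4 of 10 further targets and partners of ATF4 and CHOP (Fgf21, Jdp2, Nupr1 and Vldlr) and in Herpud1 of the degradation list. The unfolded protein response element was found in Ube2j1 of that list and in 0 promoters of the other lists. Of the other 8 lists, 0 promoters held the ER stress element.

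Recovered read totals were 7526676 to 8859862 per sample. Within each group, samples 1 to 4 differed from each other by about the noise of counting, and so did samples 5 to 8: their index of dispersion, which is near 1 for counting noise alone, was 0.987 to 1.05 in the 24 such pairs and 5.23 to 5.44 in the 32 others. These sets were averaged into libraries A (samples 1 to 4) and B (samples 5 to 8), which leaves 2 libraries per group. Wnt5a checks the labels: it lay between 90.4 and 174 in the empty samples and between 1032 and 1560 in the Wnt5a samples, a difference of 3.38 on the log2 scale (limma SE 0.22, adjusted p = 0.0010). All 9 neuroendocrine markers were expressed, and 0 of them differed by limma's adjusted p. Of 4 fibroblast markers in the files, whose sum ran from 327 to 636 in empty samples and from 235 to 263 in Wnt5a samples, nearly all the signal was Dcn, at 597 and 340.2 in the empty libraries against 241 and 246 in the Wnt5a libraries, while Col1a1, Col1a2, Cd3e, Lyz2, Pecam1, Cdh5 and Scgb1a1 stayed under 5 in every library. Summed leukocyte, endothelial and lung epithelial markers reached at most 21.6, 7.75 and 64.0 in any sample. The part of other cell types in the results was not tested, and in bulk samples fewer cells of a type and less RNA per cell cannot be told apart.

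Levels in empty cells spanned a wide range. Per kilobase of the longest transcript, Hspa5, which encodes the main ER chaperone BiP, was the most abundant at 1982 ± 235 (SD, n = 2), above 99.0% of tested genes. Atf4 followed at 1115 ± 96.3 per kilobase, and Xbp1, a transcription factor for ER capacity, at 956 ± 36.9. These 3 mRNAs each exceeded at least 96.7% of tested genes.

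Asns, asparagine synthetase, was at 709 ± 36.8 per kilobase, and Atf6 at 282 ± 0.127 (SD, n = 2). The other 5 genes lay lower. Ddit3, which encodes the pro-apoptotic factor CHOP, was at 106 ± 29.7 per kilobase, above 53.9% of tested genes. Trib3, a pseudokinase that feeds back on ATF4, was at 70.8 ± 16.5, and Chac1, a glutathione-degrading enzyme, at 66.9 ± 5.96. Atf3, a stress-induced transcription factor, was at 42.7 ± 8.55, and Sesn2, a leucine-sensing inhibitor of mTORC1, at 32.7 ± 7.69. The libraries of Trib3 and Chac1, and those of Atf3 and Sesn2, overlapped in this order of levels, and the other neighbours in it did not.

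In Wnt5a cells the first 6 places were the same, from Hspa5 at 2008 ± 212 per kilobase to Ddit3 at 126 ± 13.7 (SD, n = 2). Below them came Chac1 at 92.9 ± 18.3, Trib3 at 63.0 ± 16.6, Sesn2 at 39.7 ± 4.05 and Atf3 at 39.2 ± 1.38. The libraries of Sesn2 and Atf3 overlapped there, and no other neighbours did. Even the least covered gene, Atf3, had at least 264 reads in each library.

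With limma and adjustment over all 12357 tested genes, 0 of the 10 genes passed at 0.05, where 2.06% of tested genes did. The edgeR and DESeq2 tests on recovered reads also called 0 of the 10. At an unadjusted limma p under 0.05 there were 3 genes, Chac1 and Asns higher and Atf6 lower in Wnt5a cells, and 16.1% of all tested genes met that mark. The same 3 genes had libraries that did not overlap between the groups, which held for 44.2% of all tested genes. The median log2 difference of the 10 was 0.08, against 0.0026 for all tested genes. Without empty library B the log2 difference was 0.55 for Ddit3, 0.53 for Sesn2 and 0.55 for Chac1. Without empty library A it was -0.02, 0.05 and 0.37.

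**Figure D1:**
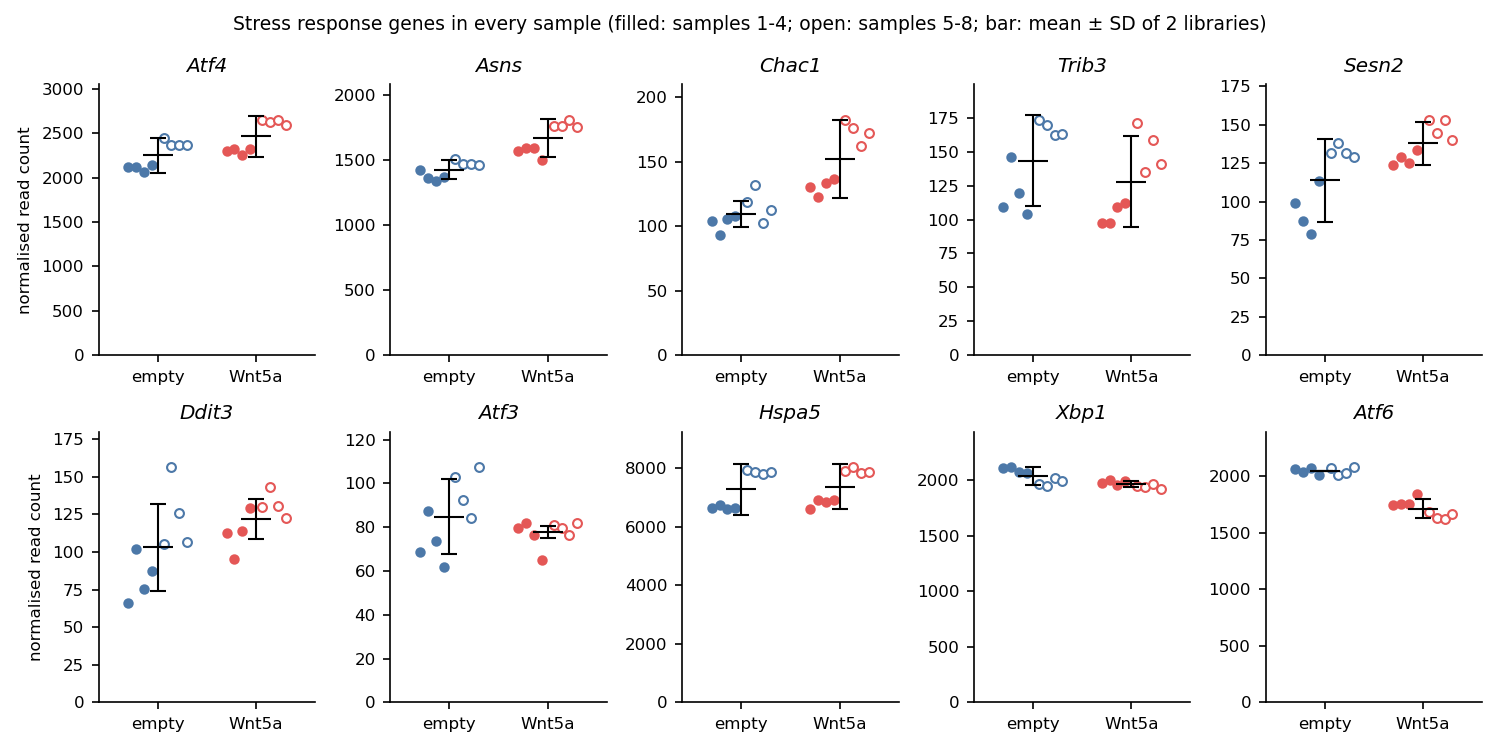
Normalised read count (vertical axes, from 0) of each gene in every sample of the empty and Wnt5a groups; filled points are samples 1 to 4 (library A), open points samples 5 to 8 (library B), and bars give the mean ± SD of the 2 libraries. For Atf6 alone the 16 samples fall into separate ranges by group. The samples stand for 2 libraries per group, and the share of all tested genes whose samples separate in this way was not counted. For Hspa5 the open points lie above the filled points in both groups.

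Atf4 comes first, as the factor on which the integrated stress response converges. Its normalised read count ran from 2065 through a median of 2253 to 2449 in the empty samples and from 2259 through 2459 to 2651 in the Wnt5a samples. The ranges overlapped, and within each group all of samples 5 to 8 lay above all of samples 1 to 4. The log2 difference between the groups was 0.13 (95% interval -0.11 to 0.37; limma adjusted p = 0.619).

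Among the targets of ATF4, Asns was between 1342 and 1512 in the empty samples (median 1447) and between 1505 and 1812 in the Wnt5a samples (median 1678). Only the lowest Wnt5a sample reached into the empty range, and the libraries did not overlap. The log2 difference was 0.22 (95% interval 0.01 to 0.44; limma adjusted p = 0.284). Within the A pair of libraries it was 0.19 and within the B pair 0.26.

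Chac1 showed the largest difference of the 10. Its read count was 93.0 to 132 in the empty samples (median 107) and 123 to 182 in the Wnt5a samples (median 150). The highest empty sample overlapped the lowest Wnt5a samples, all of which were from library A. The log2 difference was 0.46 (95% interval 0.08 to 0.84; limma adjusted p = 0.217). Within the A pair of libraries it was 0.35 and within the B pair 0.57.

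Trib3 varied widely within both groups, and Sesn2 within the empty group. Trib3 was 104 to 173 in the empty samples (median 154) and 97.1 to 171 in the Wnt5a samples (median 123), with ranges that almost coincided. Its log2 difference was -0.17 (95% interval -0.70 to 0.36; limma adjusted p = 0.798). It turned to 0.07 without empty library B and to 0.10 without Wnt5a library A.

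Sesn2 was 79.0 to 138 in the empty samples (median 121) and 124 to 153 in the Wnt5a samples (median 137). The low values were those of empty samples 1 to 4, and empty samples 5 to 8 lay inside the Wnt5a range. The log2 difference was 0.29 (95% interval -0.13 to 0.71; limma adjusted p = 0.508). Without empty library B it was 0.53 and without empty library A 0.05.

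Ddit3 and Atf3 are the stress-induced transcription factors downstream of ATF4. Ddit3 was 66.3 to 156 in the empty samples (median 103) and 95.2 to 143 in the Wnt5a samples (median 126), so that the empty samples enclosed the Wnt5a samples. The log2 difference was 0.27 (95% interval -0.21 to 0.74; limma adjusted p = 0.613). It was 0.55 without empty library B and -0.02 without empty library A.

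Atf3 was 61.8 to 107 in the empty samples (median 85.8) and 65.0 to 82.0 in the Wnt5a samples (median 79.7), again with the Wnt5a samples inside the empty range. The log2 difference was -0.11 (95% interval -0.50 to 0.28; limma adjusted p = 0.830). Atf3 lies on chromosome 1, whose median tested gene was lower in Wnt5a by a log2 difference of -0.17. With that median removed the Atf3 difference was 0.06. Without empty library B it was 0.09.

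Of the unfolded protein response genes, Hspa5 was 6626 to 7956 in the empty samples (median 7286) and 6608 to 8045 in the Wnt5a samples (median 7389). The ranges nearly coincided. The log2 difference was 0.02 (95% interval -0.26 to 0.30; limma adjusted p = 0.961), an interval that spans 0.835-fold to 1.23-fold. The difference was -0.10 without empty library A and -0.09 without Wnt5a library B.

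Xbp1 was 1943 to 2117 in the empty samples (median 2039) and 1916 to 2000 in the Wnt5a samples (median 1960). The ranges overlapped, and the log2 difference was -0.05 (95% interval -0.23 to 0.12; limma adjusted p = 0.811). Xbp1 lies on chromosome 11, whose median tested gene was higher in Wnt5a by 0.17. With that median removed the Xbp1 difference was -0.22 (limma adjusted p = 0.275).

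Atf6 had the smallest p of the 10. It was 2006 to 2079 in the empty samples (median 2049) and 1623 to 1841 in the Wnt5a samples (median 1712), with no overlap between the 8 and 8 samples. The samples of a group stand for 2 libraries, and libraries did not overlap between the groups for 44.2% of all tested genes. That share is for library means, and the share for samples was not counted. The log2 difference was -0.26 (95% interval -0.43 to -0.08; limma adjusted p = 0.154). Within the A pair of libraries it was -0.21 and within the B pair -0.31. Atf6 also lies on chromosome 1. With the chromosome median removed its difference was -0.08 (limma adjusted p = 0.767).

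**Figure D2:**
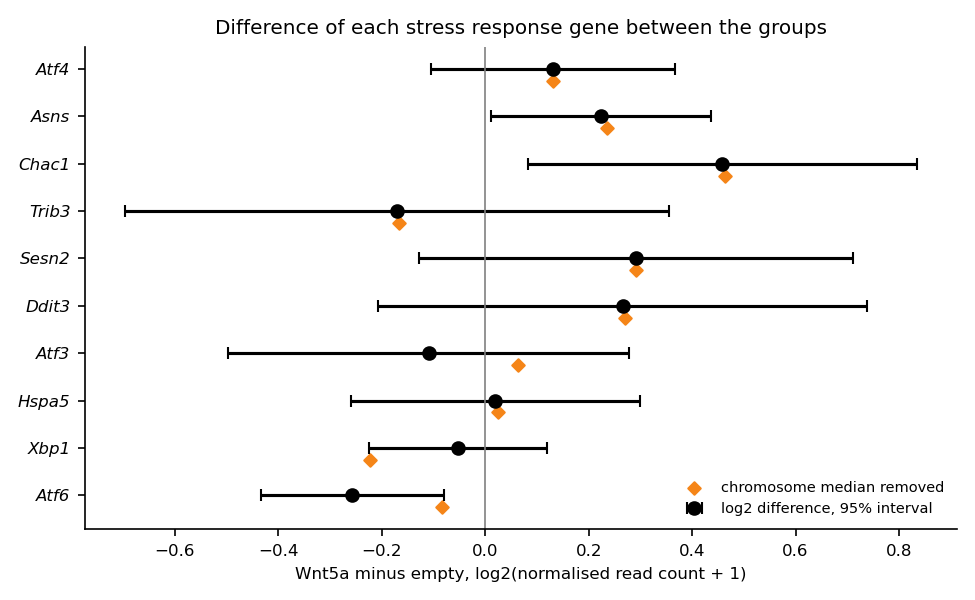
Difference between the Wnt5a and empty groups on the log2(normalised read count + 1) scale for each gene (points), with the 95% interval from limma (bars), and the same difference after the median of the gene's chromosome was removed (diamonds). The intervals of Asns, Chac1 and Atf6 do not span 0 before adjustment over all genes, and the diamonds of Atf3, Xbp1 and Atf6 sit away from the points.

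The medians of chromosomes 1, 11 and 19 differed between the groups, at -0.17, 0.17 and 0.36 on the log2 scale. On 17 other chromosomes they lay between -0.02 and 0.02. Atf4, Ddit3, Asns, Trib3, Chac1, Sesn2 and Hspa5 lie on chromosomes of that second kind, and removing the chromosome median moved these 7 genes by at most 0.0123.

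The genes whose pattern over the 4 libraries was most like that of Atf6 were C77080 (chromosome 4), Aldh1a3 (chromosome 7) and Dnajc12 (chromosome 10). Likeness was the mean absolute difference of log2 values after each gene was centred on its own mean, and it was 0.0042, 0.0059 and 0.0082. With 12357 genes tested, 345 genes outside the 10 lay within 0.05 of Atf6 on this measure. How many genes lay as near to genes other than Atf6 was not counted. The pattern was thus not particular to Atf6. With n = 4 libraries it is a description only.

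The libraries of a group also differed from each other. Library B was above library A in both groups for 8 of the 10 genes, against 35.3% of all tested genes, and the exceptions were Xbp1 and Atf6. In the empty group the log2 difference of B minus A was larger in size than that of Wnt5a minus empty for 7 of the 10 genes, and in the Wnt5a group for 3. The labels do not say what separates samples 1 to 4 from samples 5 to 8.

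Hspa5 had a difference between libraries beside a small one between groups. In the empty group samples 1 to 4 lay between 6626 and 6751 and samples 5 to 8 between 7821 and 7956. In the Wnt5a group they lay between 6608 and 6924 and between 7853 and 8045. The log2 difference of B minus A was 0.24 and 0.22, against 0.02 between the groups.

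Trib3 differed widely between libraries in both groups, with B minus A at 0.48 in empty and 0.54 in Wnt5a cells on the log2 scale. For Ddit3 it was 0.57 and 0.22, for Sesn2 0.48 and 0.21, and for Atf3 0.41 and 0.07. Atf4 differed by 0.18 and 0.19, Asns by 0.11 and 0.18, and Chac1 by 0.18 and 0.40. Xbp1 was at -0.08 and -0.03, and Atf6 at 0.0009 and -0.10.

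**Figure D3:**
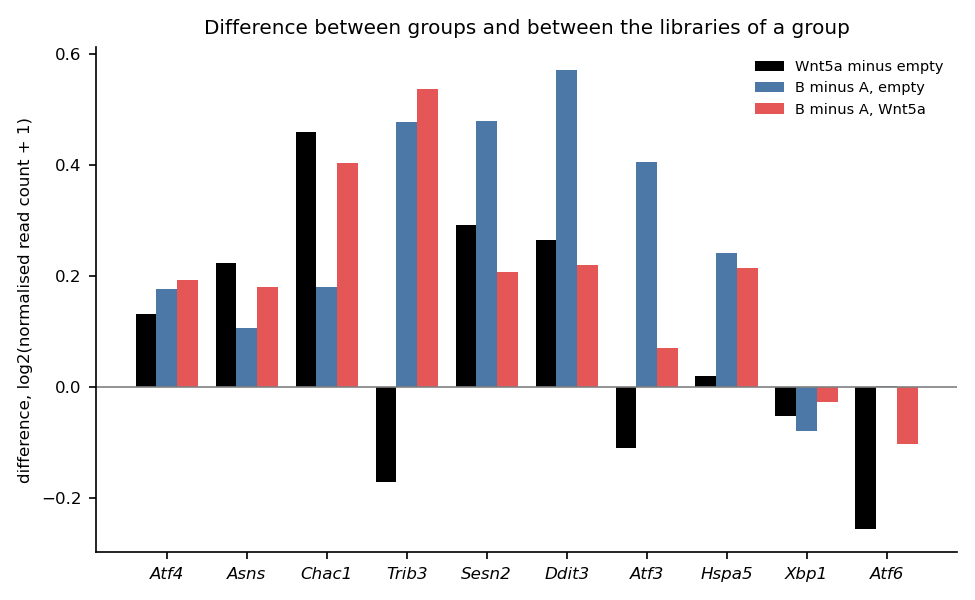
For each gene, the difference between Wnt5a and empty (black bars) beside the difference of library B minus library A in the empty group (blue) and in the Wnt5a group (red), all on the log2(normalised read count + 1) scale. For Atf4, Trib3 and Hspa5 both coloured bars exceed the black bar in size.

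Other genes of the 2 responses were followed through 10 lists, with 112 of 122 genes expressed enough to be tested. By the same limma test, 3 of these 112 genes rose in Wnt5a cells and 0 fell, a share of 2.68% beside the 2.06% of all tested genes. They were Psat1, Pycr1 and Qars. With 1 library left out the log2 difference was 1.02 to 1.44 for Psat1, 0.58 to 0.67 for Pycr1 and 0.53 to 0.58 for Qars.

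Of amino acid enzymes and transporters regulated by ATF4, 2 of 15 tested genes passed the test, both higher in Wnt5a cells. The mean was higher in Wnt5a cells for 14 of the 15, against 6262 of all 12357 tested genes. The median log2 difference was 0.25. Psat1, which makes phosphoserine in the serine pathway, rose from 325 and 434 in the empty libraries to 796 and 981 in the Wnt5a libraries, a difference of 1.23 on the log2 scale (limma SE 0.16, adjusted p = 0.015). Pycr1, which makes proline, rose from 147 and 154 to 225 and 239, a difference of 0.62 on the log2 scale (limma SE 0.10, adjusted p = 0.030). Without Wnt5a library A or B the Pycr1 call was lost (limma adjusted p = 0.084 and 0.172). With no filter on low values both calls were lost (limma adjusted p = 0.082 for Psat1 and 0.073 for Pycr1), and likewise with eBayes without trend (limma adjusted p = 0.063 and 0.054).

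Other members of that list did not pass. Slc7a5, the large neutral amino acid transporter, was at 376 and 539 against 634 and 816, which is 0.67 on the log2 scale (limma adjusted p = 0.144). Its partner Slc3a2 differed by 0.45 (0.203). Shmt2, of mitochondrial one-carbon metabolism, differed by 0.42 (limma adjusted p = 0.075). Phgdh, the first enzyme of serine synthesis, varied more between libraries than between groups, at 298 and 455 in empty and 350 and 547 in Wnt5a cells. Slc7a11, the cystine transporter, was the 1 gene with a lower mean, at a log2 difference of -0.08.

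A part of this list lies on chromosomes whose medians differed between the groups. Psat1, Aldh18a1 and Slc3a2 lie on chromosome 19, and Pycr1 and Slc1a4 on chromosome 11. The other tested genes of the list, Slc7a5, Shmt2 and Slc7a11 among them, lie on none of chromosomes 1, 11 and 19. With chromosome medians removed the median of the list was 0.15, Psat1 was at 0.87 (limma adjusted p = 0.057) and Pycr1 at 0.45 (limma adjusted p = 0.105), so that both calls were lost. The median of all tested genes was then 5.9e-05.

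**Figure D4:**
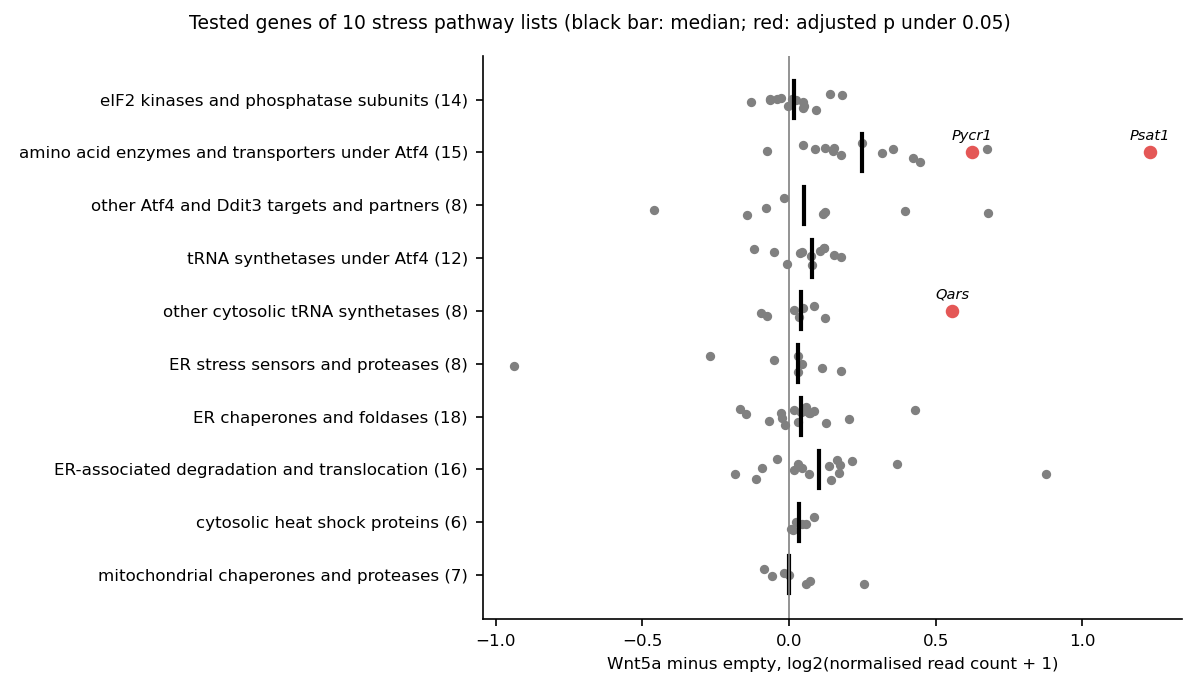
Difference between Wnt5a and empty on the log2(normalised read count + 1) scale for each tested gene of 10 lists, with the number tested in brackets, list medians as black bars, and genes with a limma adjusted p under 0.05 in red. The median of amino acid enzymes and transporters lies at 0.25, and the other medians lie between -0.00041 and 0.10.

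The tRNA synthetases known as ATF4 targets had 0 of 12 genes past the test and a median of 0.08, with log2 differences between -0.12 and 0.18. Cars, the cysteinyl enzyme, was at the upper end with 0.18 (limma adjusted p = 0.542), followed by Nars with 0.15 (limma adjusted p = 0.556). Among 8 other cytosolic synthetases the median was 0.04 and 1 gene passed. This was Qars, the glutaminyl enzyme, which rose from 365 and 352 to 530 and 526 (log2 difference 0.56; limma adjusted p = 0.021). The Qars call was lost without Wnt5a library A or B (limma adjusted p = 0.090 and 0.102) and with eBayes without trend (limma adjusted p = 0.062).

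Qars has an unusual neighbourhood on chromosome 9. The run of 7 tested genes from Nicn1 to Ccdc71 was at most 4.69 in the empty libraries and 27.7 to 513 in the Wnt5a libraries, and among tested genes only Usp19 separates Qars from it in RefSeq order. The 8 other tested genes from Usp19 through Arih2 had log2 differences between 0.22 and 0.67, of which 1 passed the test. The part of this neighbourhood in the Qars value was not tested.

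The eIF2 kinases, phosphatase subunits and exchange factor subunits showed small differences, with 0 of 14 past the test, a median of 0.02 and a range of -0.13 to 0.18. Ppp1r15a, which encodes the stress-induced phosphatase subunit GADD34, was at 133 and 150 in empty and 160 and 161 in Wnt5a libraries, a difference of 0.18 on the log2 scale (limma adjusted p = 0.504). Eif2b4, of the exchange factor eIF2B, differed by 0.14 (limma adjusted p = 0.597). The kinase genes Eif2ak3 (PERK) and Eif2ak4 (GCN2) differed by 0.05 and -0.06.

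Further targets and partners of ATF4 and CHOP had 0 of 8 tested genes past the test, with a median of 0.05. Nupr1, a stress-induced chromatin protein, was at 41.6 and 29.8 against 56.8 and 57.2, a difference of 0.68 on the log2 scale (limma adjusted p = 0.146). Tnfrsf10b, the TRAIL receptor that CHOP can induce, was at 70.9 and 81.2 against 45.6 and 65.9, a difference of -0.46 on the log2 scale (limma adjusted p = 0.321). These values leave the list without a common direction, with 4 genes higher and 4 lower.

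ER sensors and the proteases that cut ATF6 had 0 of 8 tested genes past the test and a median of 0.03. Creb3l1, a relative of ATF6 that is cut by the same proteases, was low, with 15.5 ± 0.815 in empty and 7.62 ± 0.840 in Wnt5a cells (SD, n = 2) and a log2 difference of -0.94. Its limma adjusted p was 0.121. It was called at -2.08 with quantile normalization (limma adjusted p = 0.017), and at -0.94 with eBayes without trend (limma adjusted p = 0.031). Wfs1, an ER membrane protein of calcium balance, differed by -0.27 (limma adjusted p = 0.216). Ern1, on chromosome 11, differed by 0.18 (limma adjusted p = 0.394), and by 0.0054 with that chromosome's median removed.

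ER chaperones and foldases had 0 of 18 genes past the test, a median of 0.04 and a range of -0.17 to 0.43. P4hb, the protein disulfide isomerase, was at 1640 and 1862 against 2295 and 2415, a difference of 0.43 on the log2 scale (limma adjusted p = 0.068). Canx, calnexin, differed by 0.21 (limma adjusted p = 0.269). Both lie on chromosome 11, and with its median removed they were at 0.26 and 0.03.

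Several abundant chaperones differed between libraries more than between groups. Hsp90b1 (GRP94) was at 7392 and 9128 in empty and at 7869 and 9191 in Wnt5a libraries, a log2 difference between groups of 0.05. Calr, calreticulin, was at 4775 and 5746 against 4962 and 5860, and Pdia6 at 2131 and 2471 against 2155 and 2500. Library B was above library A in both groups for 15 of the 18 chaperones and foldases, with a median B minus A of 0.19 in empty and 0.14 in Wnt5a cells, against -9.6e-05 and -0.0023 for all tested genes.

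ER-associated degradation and translocation had 0 of 16 tested genes past the test and a median of 0.10. Derl3, a channel subunit of that pathway, was at 24.0 and 34.9 against 48.8 and 59.5, a difference of 0.87 on the log2 scale (limma adjusted p = 0.116). Syvn1, the ubiquitin ligase HRD1, differed by 0.37 (limma adjusted p = 0.150), and by 0.01 with the median of chromosome 19 removed. With chromosome medians removed the median of the list was 0.04.

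Stress systems outside the ER gave a comparison. Cytosolic heat shock proteins had 0 of 6 tested genes past the test, with log2 differences from 0.0071 to 0.09. Dnajb1, a co-chaperone of the heat shock response, was at the upper end (limma adjusted p = 0.678) and Hsph1 followed at 0.06 (limma adjusted p = 0.807). Hspa1a and Hspa1b, which are induced by heat shock, were too low to be tested, at no more than 2.58 in any library. Mitochondrial chaperones and proteases had 0 of 7 past the test and a median of -0.00041, with Clpp at 0.26 (limma adjusted p = 0.263) and Hspd1 at -0.09 (limma adjusted p = 0.655), which was 0.09 with the median of chromosome 1 removed.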

How the data were processed

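The deposited file of each sample gives 1 signal value per gene symbol, which the authors deposited as normalized data. TopHat, Bowtie, HTSeq and DESeq2 are named in the submitters' processing notes, with no roles or versions; the genome build is not given in the sources used here. Divided by 1 step per sample, 100% of values gave a whole number within 0.001, so each value is a read count over a size factor, and reads were recovered. Whether counting used strand is not stated, which leaves antisense and overlapping genes uncertain. Library reads are the sum of 4 samples.

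Genes with a mean value of at least 10 were tested with limma 3.58.1 (R 4.3.3, eBayes with trend) on log2(value + 1) over the 4 library means, with Benjamini-Hochberg adjustment over 12357 genes; this scale understates changes of low genes. The named genes were the 10 members, Wnt5a, up to 3 called genes of each list or otherwise the 2 with the largest difference, and the 3 nearest to the member with the smallest p; further list genes were named after their values were seen. Members and lists were chosen with earlier results of these data known. Alternatives included edgeR 4.0.16 and DESeq2 1.42.0 on recovered reads. In a test on simulated data 25.3% of DESeq2 calls were false, against 3.78% for limma and 3.99% for edgeR. There limma found 71% of 2-fold changes, so smaller changes can be missed. Transcript lengths are from GENCODE M21, and chromosomes and gene order from RefSeq GRCm38.p6.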

Additional observations from a re-analysis of the deposited data

Results flagged for a closer look

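For each of 33 genes named by rule, the 8 samples of each group were checked for a sample far from the others. Of 66 such groups 2 stood out, where chance alone gives about 1 in 20. Atf3 in the Wnt5a group had a lowest sample of 65.0, from library A, below the next by more than the rest of the group spans. Dnajc12 in the empty group had a highest sample of 1212.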

How the results depend on the processing

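The number of stress response genes called was 0 under both pseudocounts, both other filters, median centring, quantile normalization, eBayes without trend, edgeR, DESeq2 and removal of chromosome medians. It was 3 with the library letter as a replicate block, 5 with all 16 samples counted separately and 8 with both. The block calls were Asns, Chac1 and Atf6. Fits without 1 library are not among these settings, as they leave a lone library in a group. Without empty library B the log2 difference was 0.55 for Ddit3, 0.53 for Sesn2 and 0.55 for Chac1. With the block 2095 genes were called in all (17.0%) and 21 list genes. Same-lettered libraries deviated together at r = 0.44 across genes, but only 2 pairs exist and the labels do not say that a number marks a shared batch. With all 16 samples 4377 genes and 45 list genes were called, and with the block added 6012 and 70; these fits treat near-identical samples as replicates.

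For all tested genes, against 254 calls, no filter gave 146, a minimum of 50 gave 102, eBayes without trend 158 and DESeq2 538, and leaving out 1 library 138 to 1098. For list genes, against 3 calls, no filter gave 1, eBayes without trend 1 (lower), DESeq2 6, quantile normalization 4 (3 higher, 1 lower) and removal of chromosome medians 1, and leaving out 1 library 1 to 12. Removing chromosome medians gave 207 calls among all genes, 118 higher and 89 lower, against 171 and 83. The causes were not tested, beyond the fewer genes or samples in some fits. A lone library in a group was assumed to vary like the others. The Wnt5a log2 difference was 3.12 to 3.64 without 1 library.

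Directions turned for 5 genes. Atf3 was at 0.0935 without empty library B and 0.0641 with chromosome medians removed, Ddit3 at -0.0200 without empty library A, Trib3 at 0.0681 without empty library B and 0.0981 without Wnt5a library A, Hspa5 at -0.101 without empty library A and -0.0878 without Wnt5a library B, and Hspd1 at 0.0873 with chromosome medians removed. With 1 library left out the range was -0.312 to 0.0935 for Atf3, -0.0200 to 0.551 for Ddit3, -0.440 to 0.0981 for Trib3 and -0.101 to 0.141 for Hspa5. Of 170 results for the 10 genes under alternatives, 144 kept direction and call.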
